A study of Mus musculus with 6 samples.

Results

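The genes of type I interferon reception and signalling described here are Ifnar1 and Ifnar2, which encode the receptor chains, Jak1, Jak2 and Tyk2, which encode Janus kinases, Stat2 and Stat3, which encode signal transducers, and Socs1 and Socs3, which encode suppressors of that signalling. They were chosen by gene symbol, with earlier results of these data known, and are 9 of the 23608 rows of the deposited count table. Of the 9 genes, 8 passed the filter on low counts and were tested among 11614 genes, and Socs3 did not pass. The cells came from a mouse leukaemia that the truncated fusion protein AE9a (from AML1-ETO) drives, and all of them carried 1 floxed Usp18 allele and UBCER-Cre, a recombinase that tamoxifen activates in all tissues. After transplantation and onset of disease the recipients were injected with oil (genotype Usp18+/f, 3 libraries) or with tamoxifen (genotype Usp18+/D, 3 libraries), and GFP+ Lin- c-Kit+ splenocytes were sorted 3 days after the first injection. Each group stood for 3 mice. Each library labelled tamoxifen received the drug and was meant to lose the floxed allele, so that an effect of the drug and an effect of the deletion cannot be told apart in this table. The libraries carry the numbers of the count table, which are 1, 3 and 4 for oil and 1, 2 and 4 for tamoxifen.

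Type I interferons bind a receptor made of IFNAR1 and IFNAR2. TYK2 is attached to IFNAR1 and JAK1 to IFNAR2, and the activated kinases phosphorylate STAT proteins. STAT2 joins another STAT and IRF9 in the complex ISGF3, which binds the interferon-stimulated response element (ISRE), whereas STAT3 dimers bind gamma-activated sites (GAS) and serve many cytokines of blood cells. JAK2 is attached to the receptors of erythropoietin and the interleukin-3 family. SOCS1 and SOCS3 are feedback inhibitors that are transcribed after STAT activation and block the kinases, and USP18 restrains the pathway at IFNAR2.

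Each library held between 17118964 and 20741399 counts. Usp18 was measured at 9.12, 11.0 and 11.2 CPM (counts scaled to the size of the library) in oil 1, 3 and 4. The values for tamoxifen 1, 2 and 4 were 15.1, 28.0 and 19.4 CPM, and the confidence interval of the log2 fold change ran from 0.47 to 1.52 (edgeR adjusted p-value 0.0739). The targeted transcript was thus no lower after tamoxifen, although the label names the loss of 1 allele. Counts per gene do not tell the floxed allele from the intact one, so whether the deletion took place cannot be read from them. The directions given here are those between the labels. Kit, which encodes the sorted surface receptor c-Kit, was at 439 to 451 CPM in the libraries labelled oil and at 447 to 781 CPM in those labelled tamoxifen. Of the further progenitor markers, Ptprc (the pan-leukocyte antigen CD45) and Mpo (myeloperoxidase) did not exceed 0.709 and 0.236 CPM in any library. Both were thus at or near 0, and whether that is a property of the cells or of the counting was not tested. Spi1, another of these markers, was not near 0, at 68.2 to 76.7 CPM in oil and 72.0 to 97.5 CPM in tamoxifen, and Cd34 is given below. Tamoxifen 4 stood apart from the other libraries of its label: across all genes tested its log2 CPM correlated at 0.982 to 0.985 with the oil libraries and at 0.970 to 0.973 with tamoxifen 1 and 2. In sorted bulk samples, fewer cells of a type and less RNA per cell cannot be told apart.

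To ask how abundant the parts of the pathway were relative to each other, CPM was divided by the length in kb of the longest annotated transcript. In the libraries labelled oil the order of these levels per kb was Jak1, Jak2, Stat3, Ifnar2, Ifnar1, Tyk2, Socs1, Stat2 and Socs3. Jak1, the kinase of IFNAR2 and of many other receptors, was highest at 95.2 ± 3.19 CPM per kb (SD, n = 3), above 94.7% of the tested genes that had a length when all 6 libraries were averaged. Jak2 followed at 44.3 ± 1.69 CPM per kb and Stat3 at 35.9 ± 3.61 CPM per kb (SD, n = 3 each). The receptor chains stood in the middle of the order, with Ifnar2 at 30.1 ± 1.65 and Ifnar1 at 24.8 ± 1.59 CPM per kb (SD, n = 3 each). Tyk2, the kinase of IFNAR1, had 16.0 ± 1.27 CPM per kb and Socs1 had 13.7 ± 1.25 CPM per kb (SD, n = 3 each). The lowest Tyk2 library and the highest Socs1 library both rounded to 14.5 CPM per kb, so this neighbouring pair was not separated beyond its spread. Stat2 was the lowest of the 8 tested genes at 8.80 ± 0.174 CPM per kb (SD, n = 3), above 45.1% of genes. The order from Jak1 to Tyk2 had no overlap between neighbours in the libraries labelled oil.

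In the libraries labelled tamoxifen the order of the levels per kb was the same for Jak1, Jak2 and Stat3, while Socs1 moved from place 7 to place 4. Socs1 had 30.3 ± 9.80 CPM per kb (SD, n = 3) there, and its range of 20.7 to 40.3 overlapped those of Stat3, Ifnar2 and Ifnar1, whose means were 44.8, 27.6 and 25.7 CPM per kb. Jak2, at 40.9 to 57.3 CPM per kb, and Stat3, at 37.3 to 51.9 CPM per kb, also overlapped. The order depends on the length that is chosen, since several of these genes have short annotated transcripts. With the median transcript length in oil, Stat2 stood at place 6, above Tyk2 and Socs1, and Jak2 at place 5.

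**Figure D1:**
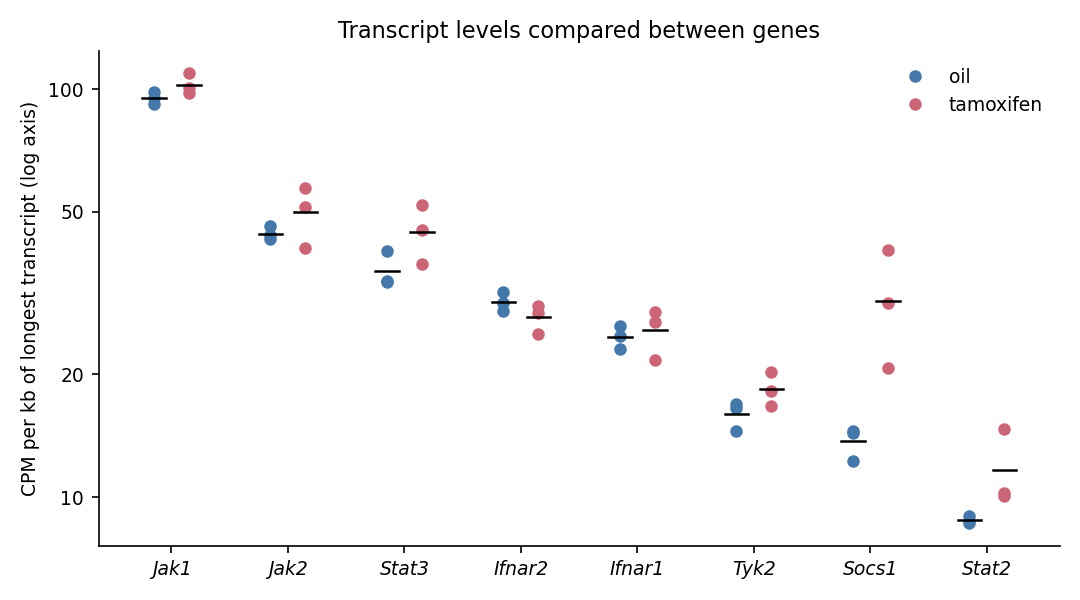
Levels per kb of the 8 tested genes in each library, on a log axis of CPM per kb of the longest annotated transcript. Points are libraries (blue, oil; red, tamoxifen; 3 each) and lines are means; Socs1 goes from 13.7 to 30.3 CPM per kb and moves up the order.

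The groups were then compared gene by gene in a fit across all genes. Socs1 was the only 1 of the 8 tested genes that passed an edgeR adjusted p-value of 0.05 with all 6 libraries. That makes 1 of 8 higher and 0 of 8 lower in the libraries labelled tamoxifen, where the background over all genes tested was 1.75% called higher and 0.267% called lower. At an unadjusted p-value under 0.05, Socs1, Stat2 and Stat3 were higher, 3 of 8 beside a background of 12.6%, and 0 of 8 were lower, beside 7.99%. Socs1 and Stat2 had tamoxifen libraries that all lay above the oil libraries, 2 of 8 beside a background of 13.3%, and 0 of 8 genes had them all below, beside 11.8%. The log2 fold change was positive for 7 of the 8 and negative for Ifnar2, with a median of 0.19 beside 0.00 over all genes tested. These shares rest on 8 genes and are given as counts only.

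**Figure D2:**
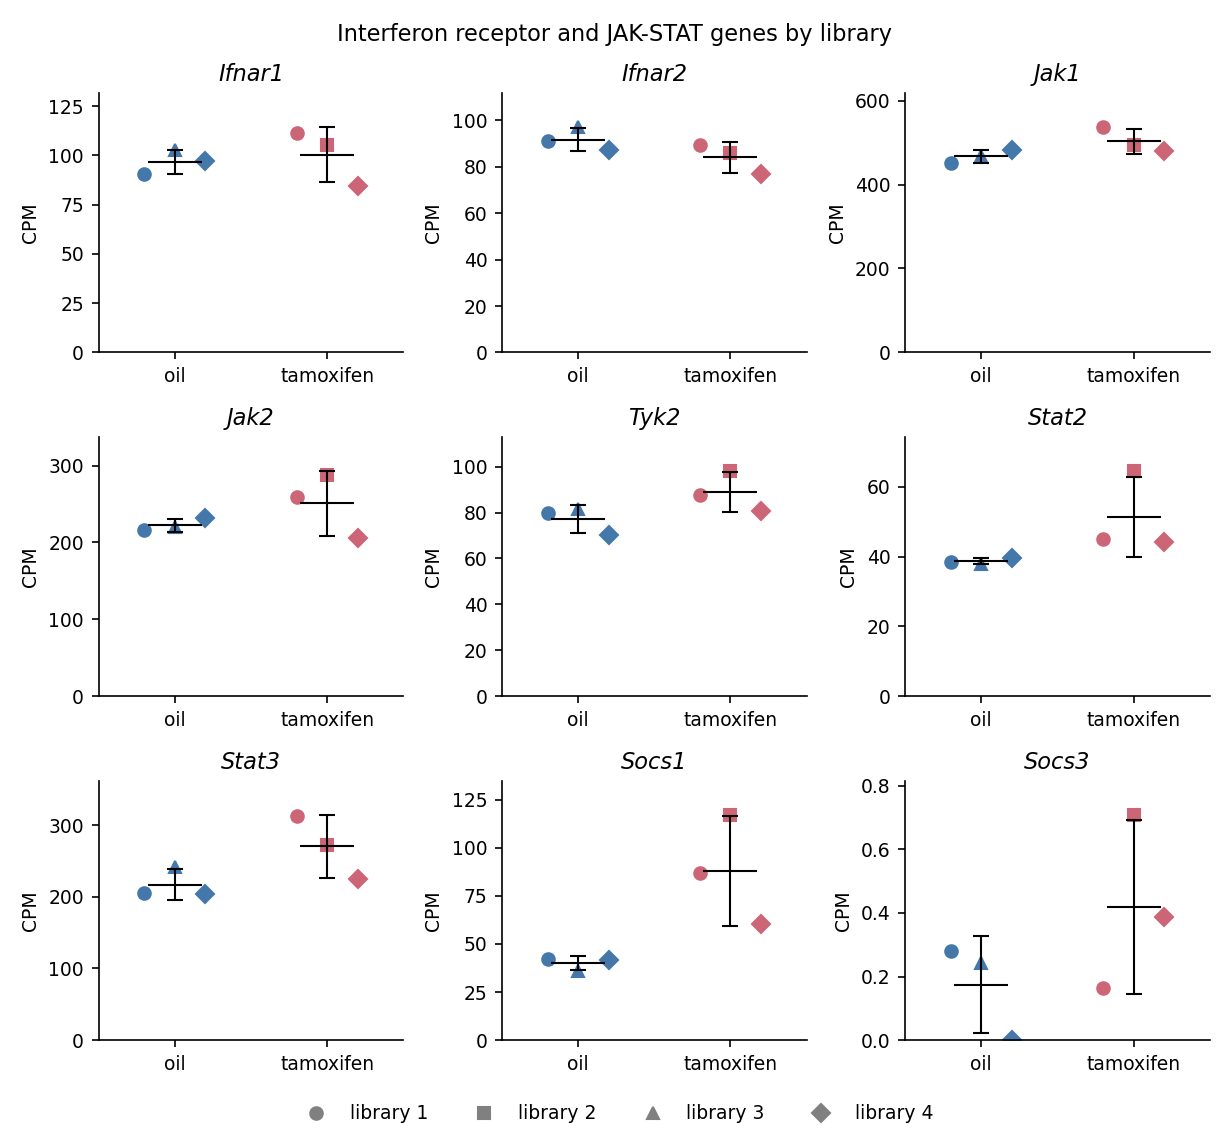
CPM of the 9 genes in each library, with linear axes that start at 0. Each symbol is a library (the shape gives its number), and the black line and bars are the mean and SD of 3 libraries; Socs1 and Stat2 are the genes whose groups do not overlap, and Socs3 stays under 0.8 CPM.

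The receptor chains showed no difference past the threshold. Ifnar1 (GRCm38, chromosome 16, 91485238 to 91507441, plus strand) had 90.4, 103 and 97.1 CPM in oil 1, 3 and 4 and 111, 105 and 84.7 CPM in tamoxifen 1, 2 and 4. The libraries labelled tamoxifen thus held both the highest and the lowest value, and the groups overlapped. The means were 96.8 ± 6.21 and 100.4 ± 13.9 CPM (SD, n = 3 each). The log2 fold change was 0.05, with a 95% confidence interval from -0.22 to 0.32 and an edgeR adjusted p-value of 0.813. Ifnar2 (chromosome 16, 91372783 to 91405589, plus strand) lies on the same chromosome, with Il10rb between them, and had 91.2, 97.0 and 87.0 CPM in oil 1, 3 and 4 against 89.6, 86.0 and 76.7 CPM in tamoxifen 1, 2 and 4. The groups overlapped in part, with tamoxifen 2 and 4 below all the oil libraries. Its log2 fold change was -0.13, with a confidence interval from -0.34 to 0.09 and an edgeR adjusted p-value of 0.449. An annotated gene, Gm21970, shares the span of Ifnar2 on the same strand and had no row of its own. Within a library the ratio of Ifnar1 to Ifnar2 CPM ran from 0.992 to 1.12 in oil and from 1.10 to 1.24 in tamoxifen, and these ranges overlapped.

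Among the kinases, Jak1 (chromosome 4, 101152367 to 101265282, minus strand) had 451, 468 and 482 CPM in oil 1, 3 and 4 and 536, 494 and 480 CPM in tamoxifen 1, 2 and 4. Tamoxifen 4 lay inside the oil range and the other tamoxifen libraries above it. The log2 fold change of 0.11, with a confidence interval from -0.09 to 0.30, had an edgeR adjusted p-value of 0.470. Jak2 (chromosome 19, 29251828 to 29313080, plus strand) had 216, 220 and 232 CPM in oil and 259, 288 and 206 CPM in tamoxifen 1, 2 and 4. Here tamoxifen 4 was the lowest of all 6 libraries. The log2 fold change was 0.17, from -0.12 to 0.46, with an edgeR adjusted p-value of 0.441. Tyk2 (chromosome 9, 21104068 to 21131243, minus strand) had 79.8, 81.5 and 70.2 CPM in oil and 87.9, 98.1 and 80.8 CPM in tamoxifen 1, 2 and 4. Only tamoxifen 4 reached into the oil range. The log2 fold change of 0.20, from -0.04 to 0.45, had an edgeR adjusted p-value of 0.305. Without tamoxifen 4, Jak2 (log2 fold change 0.30, adjusted p-value 0.0121) and Tyk2 (0.27, 0.0409) passed the threshold in edgeR, in a fit where 36.3% of all genes did, and Jak1 did not (0.14, 0.147). Without tamoxifen 2 the values fell to 0.063 for Jak2 (adjusted p-value 0.844) and 0.13 for Tyk2 (0.629), and without tamoxifen 1 that of Jak1 was 0.059 (0.790). Without oil 4 Tyk2 had 0.14 (0.621).

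Of the signal transducers, Stat2 (chromosome 10, 128270559 to 128292849, plus strand) had the narrowest spread among the 9 genes in the libraries labelled oil, with 38.6, 38.0 and 39.5 CPM in oil 1, 3 and 4, a coefficient of variation of 1.98%. It had 44.9, 64.5 and 44.3 CPM in tamoxifen 1, 2 and 4. Each of these lay above all the oil libraries, and tamoxifen 2 lay well above the other tamoxifen libraries. The means were 38.7 ± 0.766 and 51.2 ± 11.5 CPM (SD, n = 3 each). The log2 fold change of 0.40 (SE 0.15, confidence interval 0.05 to 0.76) did not pass the threshold, with an edgeR adjusted p-value of 0.205. Without tamoxifen 2 it was 0.21 (adjusted p-value 0.451), and without tamoxifen 4 it was 0.50 and past the threshold (0.0167). The fit without tamoxifen 4 called 36.3% of all genes.

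Stat3 (chromosome 11, 100885098 to 100939540, minus strand), the transducer of interleukin-6 type and many other cytokines, had 205, 242 and 204 CPM in oil 1, 3 and 4. In tamoxifen 1, 2 and 4 it had 313, 273 and 225 CPM. The highest oil library lay above tamoxifen 4, so the groups overlapped by 1 library on each side. On the log2 scale the fold change came to 0.32 (SE 0.13, confidence interval 0.01 to 0.63; edgeR adjusted p-value 0.236). It was 0.43 without tamoxifen 4, which passed (0.00670) in a fit that called 36.3% of all genes. Without tamoxifen 1 it was 0.20, which did not pass (0.536). Stat3 and Stat5a overlap at their ends on opposite strands, and the strand setting of the counting was not stated, so reads from that overlap are uncertain.

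Of the suppressors, Socs1 (chromosome 16, 10782240 to 10785536, minus strand) had 42.3, 35.7 and 41.7 CPM in oil 1, 3 and 4 and 86.9, 117 and 60.2 CPM in tamoxifen 1, 2 and 4. All the tamoxifen libraries were above all the oil libraries, and tamoxifen 4 was the nearest to them. The means were 39.9 ± 3.62 and 88.1 ± 28.5 CPM (SD, n = 3 each), so that Socs1 rose 2.21-fold by the fit, or by 1.14 on the log2 scale (SE 0.22, confidence interval 0.64 to 1.65) with an edgeR adjusted p-value of 0.0438. This call depended on which libraries were kept. Leaving out oil 1, oil 3, oil 4, tamoxifen 1 or tamoxifen 2 gave log2 fold changes of 0.89 to 1.19 and edgeR adjusted p-values of 0.0945 to 0.209, all outside the threshold, in fits that called 8 to 16 genes in all. Without tamoxifen 4 the log2 fold change was 1.36 and the adjusted p-value 7.55e-05, in a fit that called 36.3% of all genes. DESeq2, which the study also used, gave by its Wald test an adjusted p-value of 4.22e-05 with all 6 libraries, and Socs1 was the only 1 of the 8 genes that it called too, beside 8.13% of all genes. Limma-voom (adjusted p-value 0.0822) and edgeR on genes with a mean of at least 50 counts (0.0550) did not call Socs1. Set against the kinase with the highest level per kb, the ratio of Socs1 to Jak1 CPM within a library was 0.0764 to 0.0937 in oil and 0.126 to 0.237 in tamoxifen, without overlap.

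Socs3 (chromosome 11, 117966079 to 117970047, minus strand), the feedback inhibitor best known downstream of STAT3, was covered by 5, 5 and 0 counts in oil 1, 3 and 4, and by 3, 12 and 7 counts in tamoxifen 1, 2 and 4. In CPM it reached at most 0.281 in oil and 0.709 in tamoxifen, where 3 counts, the limit that a count of 0 allows, correspond to 0.145 to 0.177 CPM. The groups overlapped, and a difference was not detectable at this depth.

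**Figure D3:**
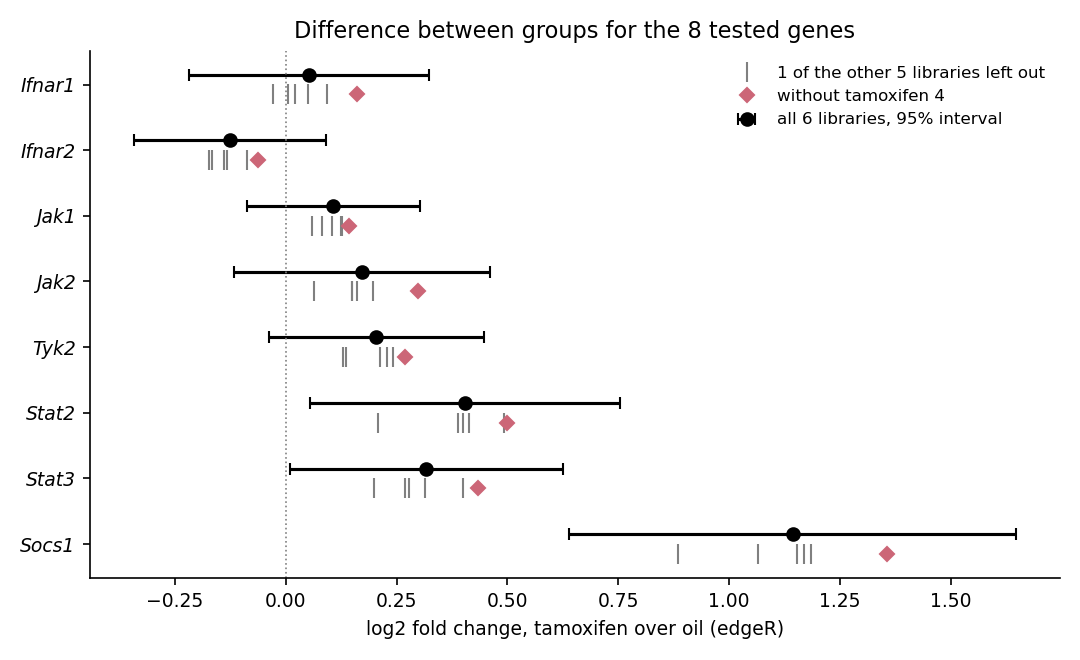
edgeR log2 fold change, tamoxifen over oil, of the 8 tested genes. Black points and bars are the fit of all 6 libraries with its 95% confidence interval, grey ticks the fits without each of the oil libraries, tamoxifen 1 or tamoxifen 2, and red diamonds the fit without tamoxifen 4, which lies at 1.36 for Socs1 and is the highest of the 6 such fits for each gene.

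The sequences before the transcription starts of Socs1 and Stat2, the genes whose groups did not overlap, and of Socs3, which was near the counting floor, are shown because they hold or lack the sites that the STAT complexes bind. They are the 250 bases before the start in RefSeq (GRCm38.p6), printed 5′ to 3′ on the strand of the gene, and cover chr16:10785537-10785786 (minus strand) for Socs1, chr10:128270248-128270497 (plus strand) for Stat2 and chr11:117969367-117969616 (minus strand) for Socs3. Capitals mark matches to the ISRE core, in which any 2 bases stand between GAAA and GAAA (TTTC and TTTC on the opposite strand), or to a GAS, in which any 3 or 4 bases stand between TTC and GAA (the same letters on either strand).
Socs1: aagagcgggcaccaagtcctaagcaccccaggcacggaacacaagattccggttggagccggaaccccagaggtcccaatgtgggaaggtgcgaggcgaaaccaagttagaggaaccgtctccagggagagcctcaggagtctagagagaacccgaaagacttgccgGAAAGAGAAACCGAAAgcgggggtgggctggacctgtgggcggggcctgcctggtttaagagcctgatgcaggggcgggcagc
Stat2: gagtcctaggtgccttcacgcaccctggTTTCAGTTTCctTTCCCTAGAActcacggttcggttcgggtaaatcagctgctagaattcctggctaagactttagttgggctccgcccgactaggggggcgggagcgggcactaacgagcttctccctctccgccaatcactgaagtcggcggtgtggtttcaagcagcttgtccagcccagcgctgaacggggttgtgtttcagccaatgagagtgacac
Socs3: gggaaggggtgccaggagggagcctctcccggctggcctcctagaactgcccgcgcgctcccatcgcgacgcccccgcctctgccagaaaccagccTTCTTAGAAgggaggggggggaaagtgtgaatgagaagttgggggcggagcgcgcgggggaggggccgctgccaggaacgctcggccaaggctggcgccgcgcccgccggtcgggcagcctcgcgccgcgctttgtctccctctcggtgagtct

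In Socs1, 2 ISRE cores overlapped in the run GAAAGAGAAACCGAAA, which began 83 bases before the start. In Stat2 an ISRE core, TTTCAGTTTC, began 222 bases before the start and was followed by the GAS-like site TTCCCTAGAA at 210 bases. In Socs3 the sole match was the GAS TTCTTAGAA at 154 bases. Among the other 6 genes, Ifnar2 held a GAS at 214 bases and Ifnar1 one at 5 bases before the start, and Jak1, Jak2, Tyk2 and Stat3 held none of the 3 motifs in a window from 250 bases before to 50 bases after the start. An ISRE core thus occurred in 2 of the 9 genes, beside 3.99% of the 27025 genes with a RefSeq promoter of this length. The GAS with 3 spaced bases occurred in 3 of 9 beside 9.55%, and that with 4 spaced bases in 1 of 9 beside 8.01%. Of the 342 tested genes with an ISRE core in a promoter, 12 were called higher and 1 lower, and tamoxifen lay above oil for 19.9% and below for 10.8%. Of the 759 with the GAS of 3 spaced bases, 20 were called higher and 2 lower, with 15.2% above and 8.43% below, and of the 587 with that of 4 spaced bases, 15 were called higher and 0 lower, with 13.8% above and 9.71% below. All 9122 tested genes with a promoter held 163 called higher and 26 lower, with 13.0% above and 11.7% below. A match is a description of the letters and not evidence of binding.

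The other genes of the pathway were read from the same fit, in lists set out by role. Together they comprised 80 genes, of which 50 were tested, 2 were called higher and 0 lower, and 22 were higher and 1 was lower at an unadjusted p-value under 0.05. That is beside backgrounds of 1.75% called higher, 0.267% called lower, 12.6% higher unadjusted and 7.99% lower unadjusted, and 5809 of the 11614 genes tested had a positive log2 fold change. The interferon genes themselves were at or near 0: of the 20 ligand genes, 17 had 0 counts in all 6 libraries, 0 were tested, and Ifnz and Ifng, the highest in CPM, reached at most 0.281 and 0.113 CPM. The other interferon receptor chains, 4 of 4 tested, had a median log2 fold change of 0.13 with 0 called. Among them Il10rb, a chain shared by the receptors of interleukin-10 and interferon lambda, had 60.2 ± 3.58 CPM in oil and 67.2 ± 18.9 CPM in tamoxifen, and Ifngr2, the signalling chain for interferon gamma, had 46.0 ± 1.19 and 49.3 ± 7.50 CPM (SD, n = 3 each).

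The receptors that signal through JAK2 and JAK1 had a median log2 fold change of 0.73 over the 5 of 10 tested, with 0 called. Csf2rb, the beta chain shared by the receptors of interleukin-3, interleukin-5 and GM-CSF, had 707, 827 and 652 CPM in oil 1, 3 and 4 and 2087, 2254 and 861 CPM in tamoxifen 1, 2 and 4. Its paralog Csf2rb2, specific to interleukin-3 in mice, had 166, 199 and 154 CPM in oil and 1002, 1401 and 278 CPM in tamoxifen. Every tamoxifen library lay above every oil library for both, with tamoxifen 4 nearest to oil. Their log2 fold changes of 1.25 and 2.37 missed the threshold in edgeR (adjusted p-values 0.0905 and 0.0557). Both passed it in DESeq2 (adjusted p-values 0.000870 and 0.00513), which called 8.13% of all genes. Since the copies are near-identical in sequence, the split of reads between them is uncertain. Epor, the erythropoietin receptor, went the opposite way, and is named after its values were seen. It had 75.1, 76.5 and 77.3 CPM in oil 1, 3 and 4 against 60.8, 54.7 and 61.3 CPM in tamoxifen 1, 2 and 4, so that all the tamoxifen libraries lay below all the oil libraries. Its log2 fold change of -0.37 (SE 0.085) missed the threshold in edgeR (adjusted p-value 0.0723) and passed it in DESeq2 (adjusted p-value 0.00708). Osmr had 0 counts in all libraries, and Il6st, the chain that links interleukin-6 to STAT3, did not exceed 0.773 CPM.

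The other JAK and STAT genes with Irf9 had positive log2 fold changes for 6 of 6 tested, with a median of 0.23 and 0 called. Stat5a and Stat5b, the transducers of the interleukin-3 and erythropoietin receptors, had the highest CPM of them, at 277 ± 14 and 282 ± 7.68 CPM in oil and 309 ± 25.2 and 305 ± 42.4 CPM in tamoxifen (SD, n = 3 each). Irf9, named after its values were seen because it is the partner of STAT2, had a log2 fold change of 0.38 (edgeR adjusted p-value 0.200) beside 0.40 for Stat2, and its libraries labelled tamoxifen also lay above those labelled oil. Of the other SOCS genes, 5 of 6 were tested, with a median of 0.01 and 0 called. Socs2, with the highest CPM of them, had 81.7 ± 4.26 and 80.7 ± 4.56 CPM and a log2 fold change of -0.02 with a confidence interval from -0.22 to 0.18. Cish, a feedback inhibitor downstream of STAT5, had 55.7, 53.0 and 45.8 CPM in oil 1, 3 and 4 and 85.3, 97.5 and 57.7 CPM in tamoxifen 1, 2 and 4, a log2 fold change of 0.64 (edgeR adjusted p-value 0.123), with groups that did not overlap. The ratio of Socs1 to Socs2 CPM within a library was 0.415 to 0.536 in oil and 0.798 to 1.40 in tamoxifen.

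Phosphatases, PIAS proteins and adaptors that restrain the pathway, Usp18 among them, had a median log2 fold change of 0.00 over 10 tested, with 0 called. Ptpn6 and Ptpn11, the phosphatases SHP-1 and SHP-2, had log2 fold changes of -0.09 and -0.15 (edgeR adjusted p-values 0.614 and 0.317). The ISGF3 target genes had positive values for 10 of 10 tested and a median of 1.37, and 1 of them, Mx2, a dynamin-like antiviral GTPase, was called (log2 fold change 4.28, edgeR adjusted p-value 0.0399). With 0, 4 and 2 counts in oil 1, 3 and 4, its size rests on few reads. The STAT3 and STAT5 target genes were positive for 8 of 10, with a median of 0.29, and 1 was called: Cebpb, a transcription factor of myeloid cells, rose from 8.63 ± 1.11 to 14.8 ± 0.911 CPM (SD, n = 3 each; log2 fold change 0.78, edgeR adjusted p-value 0.0493).

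**Figure D4:**
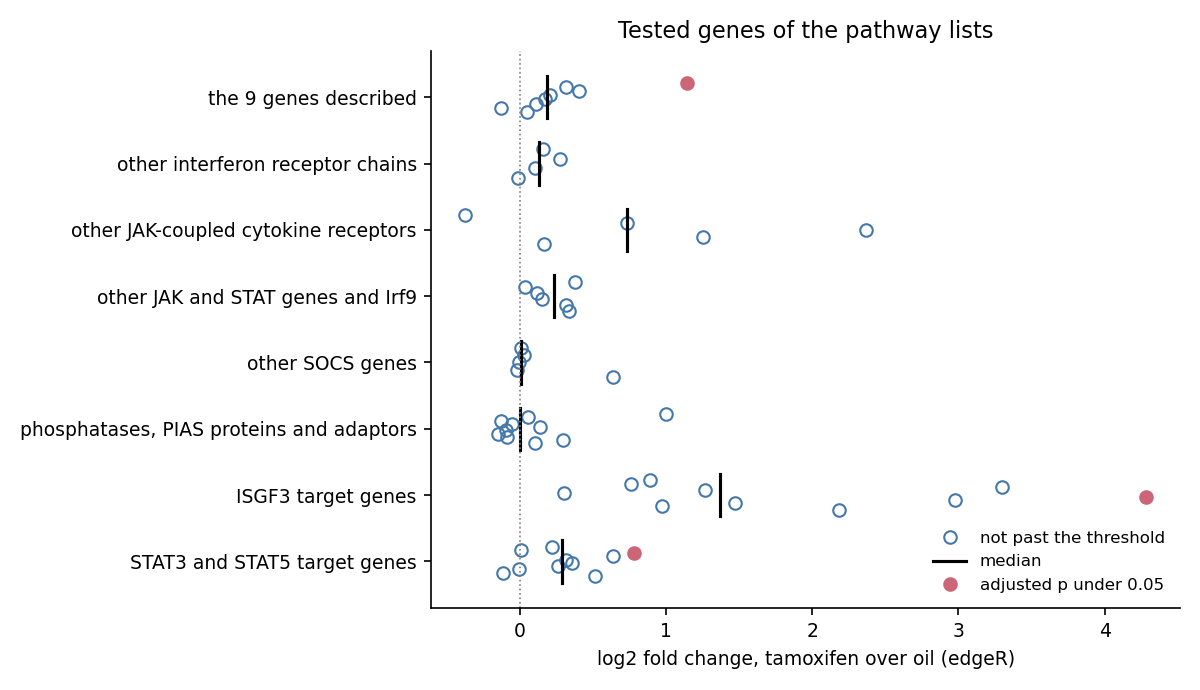
edgeR log2 fold change, tamoxifen over oil, of each tested gene of the lists (1 circle a gene; filled red where the adjusted p-value is under 0.05; the line is the median of the list). The interferon ligands have no tested gene; medians run from 0.00 for the phosphatases, PIAS proteins and adaptors to 1.37 for the ISGF3 target genes.

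The genes were also compared in how they varied from library to library. Tamoxifen 4 held the lowest of the tamoxifen values for 8 of the 8 tested genes, beside 41.2% of all genes tested. For the 10 tested ISGF3 target genes the lowest was tamoxifen 1 in 8, beside 30.5% of all genes tested, and tamoxifen 4 in 2. The highest value was in tamoxifen 1 for Ifnar1, Ifnar2, Jak1 and Stat3 and in tamoxifen 2 for Jak2, Tyk2, Stat2 and Socs1, and it was in tamoxifen 2 for 10 of 10 tested ISGF3 target genes, beside 33.3% of all genes tested. Relative to the oil mean on the log2 CPM scale, Socs1 was shifted by 1.12, 1.56 and 0.60 in tamoxifen 1, 2 and 4 and Usp18 by 0.54, 1.42 and 0.90. Stat2 was shifted by 0.22, 0.74 and 0.20 and Stat3 by 0.53, 0.33 and 0.06, so that Stat2 was most raised in tamoxifen 2 and Stat3 in tamoxifen 1. Over the 6 libraries, which share the group difference, Pearson's r of log2 CPM among the 28 pairs of tested genes was highest for Stat2 with Socs1 (0.914) and lowest for Ifnar2 with Socs1 (-0.375). With Usp18 it was 0.923 for Stat2, 0.871 for Socs1, 0.534 for Stat3 and -0.582 for Ifnar2. The genes most like Socs1 were Rcsd1, Rin3 and Osbpl5 (r from 0.995 to 0.999), and those most like Stat2 were Dok2, Trim12c and Bbc3 (r from 0.992 to 0.998). With 6 libraries such values are common, and 918 genes had an r above 0.9 with Socs1 and 477 with Stat2.

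Markers of other cells were read beside these results. The 5 B cell markers summed to 0.0514 to 0.281 CPM in oil and 0.295 to 0.878 CPM in tamoxifen, and the 6 neutrophil markers to 0 to 0.412 and 0 to 0.472 CPM. Among 6 markers of T and NK cells, Cd3e, Cd8a and Ncr1 were at 0 in all libraries, while Nkg7 moved the sum from 1.13 to 2.57 CPM in oil to 7.62 to 56.4 CPM in tamoxifen. The 8 macrophage markers summed to 4.85 to 8.55 CPM in oil and 9.28 to 22.2 CPM in tamoxifen. Of these, Hmox1, Vcam1 and Cd68 lay above oil in every tamoxifen library, as did 13.3% of all genes tested. The groups overlapped for Adgre1, C1qa, C1qb, C1qc and Csf1r, with negative log2 fold changes for C1qb (-0.17) and C1qc (-0.12). The 6 mast cell markers summed to 1304 to 1478 CPM in oil and 1897 to 4731 CPM in tamoxifen, highest in tamoxifen 2. The sums of the T and NK cell, neutrophil, macrophage and erythroid markers were also highest in tamoxifen 2. Of the 6 mast cell markers, 5 lay above oil in every tamoxifen library, beside 13.3% of all genes tested. Ms4a2, the most abundant of them in oil, overlapped between the groups, at 896 ± 29.6 and 872 ± 53.0 CPM (SD, n = 3 each). Cd34, a progenitor antigen, had 8.43 to 11.7 CPM in oil and 41.8 to 134 CPM in tamoxifen. The 5 erythroid markers summed to 2606 to 3841 CPM in oil and 2097 to 4626 CPM in tamoxifen, and the groups overlapped. The part of these cells in the differences of Socs1 and Stat2 was not tested.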

How the data were processed

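RNA-seq of sorted AE9a leukaemia cells was analysed from 1 count table of 6 libraries, 3 labelled oil and 3 labelled tamoxifen. Estimated counts for each gene symbol, unscaled between libraries, were deposited after mapping with STAR to mm10 per the labels. The counting program, strand setting and annotation are not given in the sources used here. All values were multiples of 0.5, between 25.9% and 27.3% of those in a library were not whole, and they were rounded. The sample titles have the numbers 1, 2 and 4 for oil and 1, 3 and 4 for tamoxifen, so oil 3 and tamoxifen 2 of the table were assigned by group only. For 26 rows the symbol had become a date, and they stayed in the totals.

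Counts were tested in R 4.3.3 with edgeR 4.0.16 (filterByExpr by group, TMM, quasi-likelihood F test without a block), with Benjamini-Hochberg adjustment over 11614 genes and a threshold of 0.05. CPM was taken relative to the total over tested genes after TMM scaling. Standard errors came from the F statistics and log2 CPM used a prior count of 2. Intervals and floors cover these libraries and counting error only, since reads carry no molecular identifiers. The main edgeR fit was tested on simulated data. It called 95% of 100 genes changed 4-fold and 77% of 100 changed 2-fold, with 6 false calls. The other fits were not simulated. Symbols were matched to GENCODE M21 (97.6%) for coordinates and lengths, and 9 of 9 genes to RefSeq promoters. The genes and lists were chosen with earlier results of these data known. The genes named are the 9, Usp18, at most 3 called genes of a list or else its 2 most abundant, and the 3 genes most like Stat2 and Socs1; Irf9, Epor, Osmr, Il6st and the cell markers named were added after their values were seen. The alternatives were DESeq2 1.42.0, limma-voom (limma 3.58.1), other scalings and filters, a replicate block, each library left out, the median transcript length and, chosen after seeing the data, unrounded counts.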

Additional observations from a re-analysis of the deposited data

How the results depend on the processing

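Among all genes, calls higher and lower with tamoxifen were 203 and 31 as reported, 713 and 231 by the DESeq2 Wald test, 48 and 6 by limma-voom, 372 and 61 without a low-count filter and 120 and 17 at a mean of at least 50 counts, where fewer genes were tested. Of the 9 genes described, 1 was called higher as reported and 0 by limma-voom and at a mean of 50 counts, where Socs1 had adjusted p-values of 0.0822 and 0.0550. Of the pathway lists, 2 genes were called higher as reported, 13 higher and 1 lower by DESeq2, 7 higher without a filter, 6 higher with the replicate block and 0 by limma-voom and at a mean of 50 counts. DESeq2 size factors, upper-quartile scaling and unrounded counts kept each of these counts within 1.5 times. Leaving out 1 library moved all genes called between 8 and 2278 higher and between 0 and 2024 lower, the 9 genes between 0 and 5 higher with 0 lower, and the lists between 0 and 22 higher and between 0 and 1 lower, and each upper value came without tamoxifen 4. The 5 were Jak2, Tyk2, Stat2, Stat3 and Socs1, in a fit that called 36.3% of all genes in either direction. The cause was not tested.

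Socs1 was called in 7 of its 14 alternatives, with log2 fold changes of 0.79 to 1.36 and adjusted p-values from 4.22e-05 to 0.209. Ifnar1, not called in any fit, reversed to -0.029 without tamoxifen 1 and was 0.16 without tamoxifen 4, and the other tested genes kept their direction. The replicate numbers that both groups share, 1 and 4, gave correlations of deviations of -0.13 and 0.06, and the libraries have nothing but a number in common. In the fit with the replicate block, Socs1 had 0.79 (adjusted p-value 0.0189) and all genes called were 215 higher and 26 lower. With the same block Jak2 had 0.045, Tyk2 0.17 and Stat2 0.19, and 0 of these was called. With the median transcript length the oil levels per kb were 741 for Jak1, 49.8 for Jak2, 290 for Stat3, 83.5 for Ifnar2, 69.5 for Ifnar1, 46.6 for Stat2 and 0.356 for Socs3, because many annotated transcripts are short. Depth limits Socs3, with at most 12 counts in a library.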
